A study of Mus musculus with 5 samples.

Results

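This report describes 10 genes of bone morphogenetic protein (BMP) signaling in single-cell RNA-seq (scRNA-seq) of the developing mouse penis and limb: the secreted ligands Bmp2, Bmp3, Bmp4, Bmp5, Bmp6, Bmp7, Gdf5 and Gdf6, and the secreted antagonists Nog (noggin) and Grem1 (gremlin 1). They were taken by gene symbol from the 32285 genes of the count tables. All 10 symbols were found once. The study compared tissues in which bones begin to form, the penis with its baculum and the limbs, at the ages when ossification starts. The data were 3 libraries of penis from male mice at postnatal day 6 (P6), 1 library of forelimb and 1 of hindlimb from embryonic day 15 (E15). The labels name no engineered allele and no treatment in any group. The labels give the strain as C57BL/6N and the study's methods as C57BL/6J.

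BMPs are dimeric ligands of the TGF-beta superfamily that bind type I and type II serine/threonine kinase receptors, whose type I member phosphorylates Smad1, Smad5 and Smad9. Noggin and gremlin bind ligands outside the cell and block access to the receptors. In the limb these genes act in patterning, in joint formation, in cartilage condensation and growth, and in ossification, and BMP signals also act in genital tubercle outgrowth.

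Values are counts of unique molecular identifiers (UMIs), each standing for 1 captured mRNA molecule. After the cell filters of the study the penis libraries held 6788, 7085 and 5708 cells, the forelimb library 22057 and the hindlimb library 20514. The median cell of each library held between 5358 and 9909 UMIs, and limb cells were the shallower. Levels are given as CPM, the UMIs of a gene per 1000000 UMIs of the cells summed. The limb labels held up: Tbx5 stood at 55.5 CPM in the forelimb library and 3.09 in the hindlimb library, and Pitx1 at 1.03 and 68.6. Between 20 and 203 barcodes were shared by any pair of libraries.

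Cells were sorted by markers. A cell passed a list when it had a UMI of enough of its genes. The limits were 5 of 10 for mesenchyme, 4 of 8 for chondrocytes and 3 of 6 for endothelium. Cells that passed several lists were either placed in a gate or left out as mixed. Penis cells in the chondrocyte and mural gates thus had medians of 9 and 6 mesenchyme markers. Of 62152 cells, 51722 entered a gate, 2954 were left out as mixed, and 7476 passed no list. The mesenchyme gate (Pdgfra, Prrx1, Twist1 and others) held 4185, 4287 and 3526 penis cells, 12062 forelimb and 11239 hindlimb cells. The chondrocyte gate (Col2a1, Acan, Col9a1 and others) held 215, 215 and 178 penis cells, against 1954 and 2566 limb cells. Muscle cells were found in the limbs only, 1230 in forelimb and 998 in hindlimb. No test is reported for the gates for red blood cells and for osteoblasts. The first held penis cells with a median of 8 to 9 mesenchyme markers, and the second held 7 to 12 cells per library. The limb sums of red blood cells, from 130 forelimb and 111 hindlimb cells, were still part of the fit used for comparisons between gates.

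The chondrocyte gate does not hold like cells in both tissues. Its penis cells had a median of 9 of 10 mesenchyme markers and 5 of 8 chondrocyte markers, and its limb cells had 4.5 to 5 and 7. Col2a1, the major collagen of cartilage, stood at 2034, 2677 and 2387 CPM in the penis gate and at 5282 and 4576 CPM in the limb gate. Matn4, a cartilage matrix protein, stood at 47.8, 64.0 and 71.7 CPM against 522 and 401. Between 36.7% and 45.5% of the penis cells sat at the minimum number of markers, against 16.4% and 17.4% of the limb cells. In the tendon gate (Scx, Tnmd, Mkx and others) 54.3% to 56.9% of the penis cells sat at the minimum, against 49.6% and 44.9% of the limb cells. Tnmd, the tendon protein tenomodulin, stood at 205, 109.6 and 208 CPM in the penis tendon gate against 589 and 455. Thbs4, a matrix protein of tendon, stood at 72.7, 60.2 and 32.7 CPM against 300.6 and 266. Scx was lower in penis too, at 183, 161 and 208 CPM against 290 and 281. The other markers of that list had the reverse order. Fmod stood at 372, 327 and 371 CPM in penis against 161 and 166. Mkx stood at 272, 243 and 280 CPM against 167 and 190, and Kera at 432, 353 and 351 CPM against 320 and 297. In the epithelial gate Krt14 stood at 3157, 2744 and 2661 CPM in penis against 1647 and 1263. Epcam had the reverse order there, at 212, 184 and 216 CPM against 368 and 305. In the mural gate Myh11 stood at 591, 818 and 746 CPM against 262 and 164. Before the cell filters the epithelial gate held 620, 776 and 514 penis cells and 222 and 243 limb cells. After them it held 312, 366 and 246 penis cells and 155 and 183 limb cells. Stricter and looser gates are among the alternatives run, the looser for the penis-limb comparison only. Beyond these the part of such differences in makeup in any result was not tested.

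UMIs were summed per library and gate, and edgeR's quasi-likelihood test set the 3 sums of penis against the 2 of limb. A gene was called at a Benjamini-Hochberg adjusted p under 0.01 over all genes tested and a log2 fold-change over 1 in size. Log2 fold-changes are penis minus limb and are followed by their standard error. Postnatal penis and embryonic limb differ in age as well as tissue, and these cannot be told apart. The study's methods name 3 male mice of more than 1 litter for the penis, with the prepuce removed. The labels do not tie the penis libraries to animals or litters, so p-values between tissues measure the spread between these libraries, which may be technical. Comparisons between gates, within a tissue or of penis-limb differences, came from 1 fit over all gates with the library as a block. Their p-values rest on the spread left between gates of the same libraries and do not measure replication over animals. Forelimb and hindlimb had 1 library each, served together as the limb group and were not tested against each other. The spread within the limb group thus also holds any difference between forelimb and hindlimb. The study's methods name a single set of male embryos as the source of both limbs and do not assign embryos to libraries, so the limb sums may share animals and may not be independent.

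Over all kept cells of a library, 6 of the 10 genes were called, where 24.5% of all 21723 genes tested were called, 13.0% higher and 11.5% lower in penis. Bmp6 (1.82 ± 0.06), Bmp4 (1.49 ± 0.06), Bmp3 (1.38 ± 0.10) and Grem1 (1.98 ± 0.10) were higher in penis. Gdf5 (-4.99 ± 0.26) and Nog (-1.01 ± 0.12) were lower. In such sums, fewer cells of a type and less RNA per cell cannot be told apart. The Nog call was lost without the first penis library (-0.95), without the hindlimb library (-0.81) and over all deposited barcodes (-0.15).

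Over the 8 gates present in both tissues, 43 of the 80 pairs of gene and gate passed the filter on low counts, and 21 were called, 14 higher and 7 lower in penis. Over all genes in the same gates 17.0% of tests were called, 9.03% higher and 7.95% lower. A pair that passes the filter through its higher tissue alone had to differ. Among such pairs were Gdf5 in the chondrocyte and mesenchyme gates, Gdf6 in the chondrocyte and tendon gates, and Nog and Bmp6 in epithelium. These counts, and the penis-limb p-values of such pairs, thus describe the genes and support nothing further. In the chondrocyte gate 7 of 10 were called (17.9% of all genes there), in mesenchyme 4 of 10 (25.3%), in tendon 3 of 9 (15.9%) and in epithelium 3 of 6 (11.4%). Endothelium had 2 of 3 called (13.6%), mural cells 1 of 2 (8.06%), myeloid cells 1 of 2 (19.5%) and glia 0 of 1 (16.1%). The direction depended on gene and gate, as the plot of levels by gate and library shows.

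**Figure D1:**
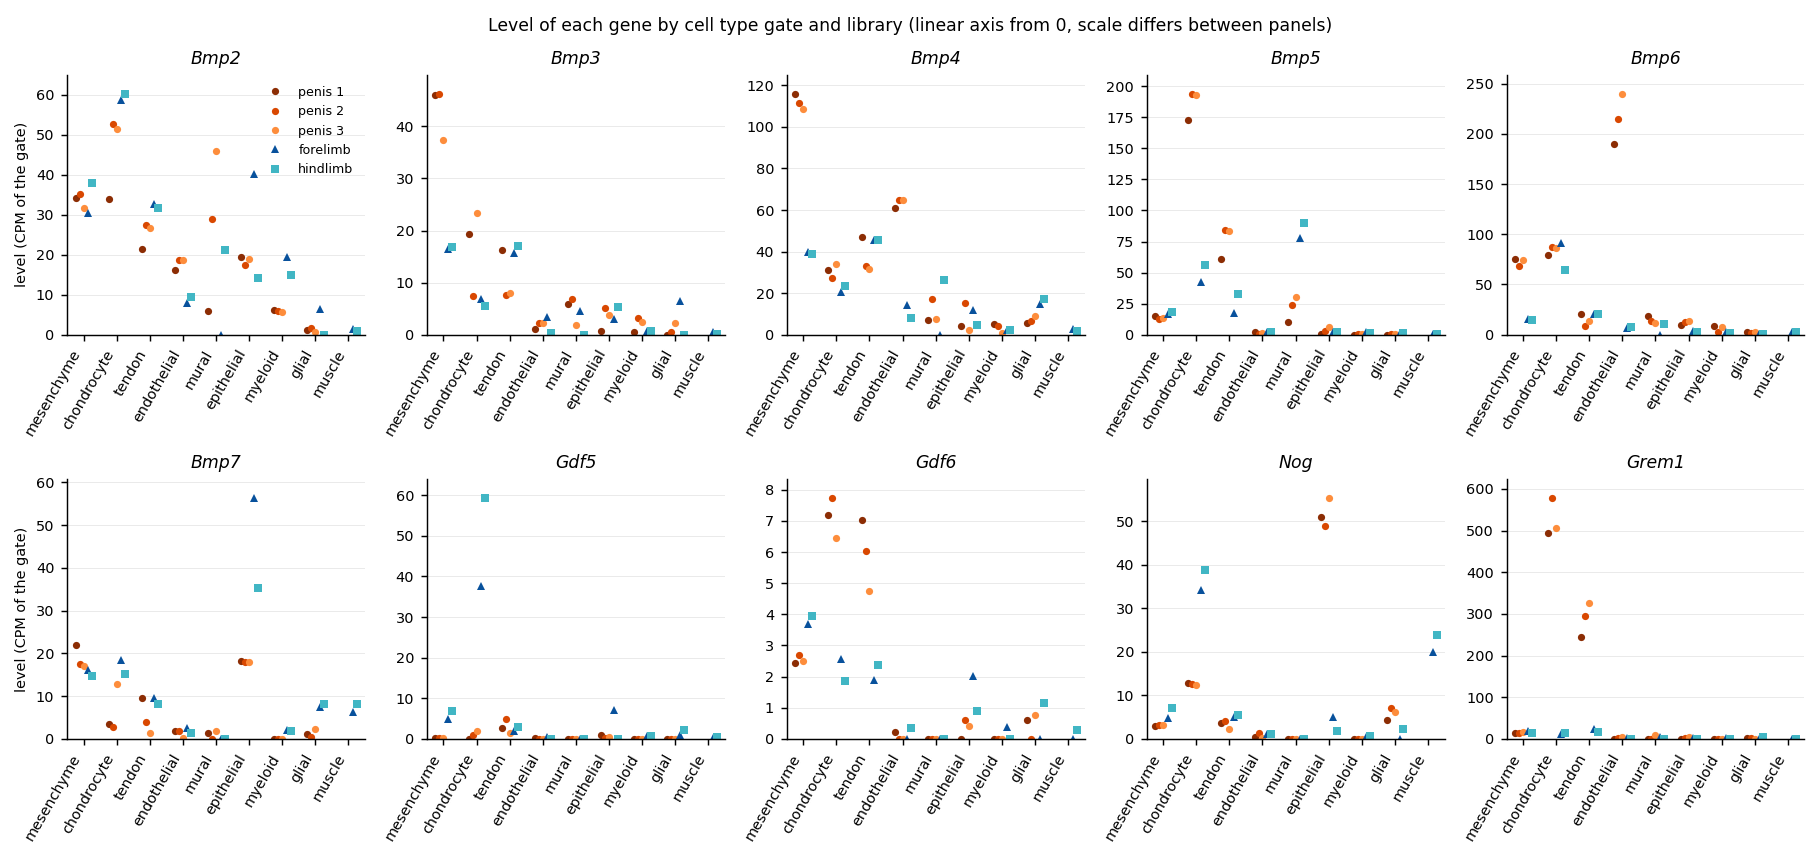
Levels of the 10 genes in CPM of the gate (linear axes from 0 that differ between panels), by gate, with 1 panel per gene and 1 point per library. Grem1 sits at 495 to 578.0 CPM in the penis chondrocyte gate and at 10.95 and 13.7 CPM in the limb one, while in the mesenchyme gate as used here the tissues overlap, which other gate settings changed.

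Bmp4 is a ligand made widely in mesenchyme and is known for its part in limb and genital outgrowth. In the mesenchyme gate it stood at 116, 111.7 and 108.6 CPM in the penis libraries, 40.0 in forelimb and 38.7 in hindlimb. The penis mean was 112 ± 3.70 CPM (SD, n = 3), 2.85-fold the limb mean, and no penis library came near a limb library. The log2 difference was 1.49 ± 0.06 (edgeR adjusted p = 1.4e-07). A Bmp4 UMI was seen in 49.7% to 52.5% of penis mesenchyme cells, against 18.1% in forelimb and 19.1% in hindlimb. At an equal depth of 2000 UMIs per cell these shares became 17.8% to 18.3% against 7.35% and 7.34%. Myeloid cells, which gave the background, had a Bmp4 UMI in 0.60% to 3.30% of cells over the 5 libraries, at medians of 6517 to 7878 UMIs.

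Endothelial Bmp4 followed the same direction, at 60.7, 64.6 and 65.0 CPM in penis, 14.1 in forelimb and 7.89 in hindlimb. The penis values lay close together and above both limb values, with a difference of 2.50 ± 0.18 (edgeR adjusted p = 4.1e-09). Chondrocyte-gated cells held Bmp4 at 30.9, 27.1 and 34.0 CPM against 20.6 and 23.4. Those groups did not overlap, but the difference of 0.49 ± 0.13 was below the fold limit, and it was called with 1 marker fewer (1.27) and over all barcodes (1.03). The chondrocyte difference was smaller than the mesenchyme difference by 1.03 (interaction -1.03 ± 0.24, edgeR adjusted p = 0.0014). That call was lost over all barcodes (-0.50), with gates set at 2000 UMIs (-1.15) and without the second penis (-0.95) or the hindlimb library (-0.93).

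Bmp6, a ligand known in endothelium for inducing the iron hormone hepcidin in the liver and in cartilage as a product of hypertrophic chondrocytes, gave the widest endothelial difference of the 3 genes tested there. It stood at 190.0, 215 and 240.0 CPM in the penis endothelial gate, 6.85 in forelimb and 7.17 in hindlimb. These were 879, 983 and 860 UMIs against 18 and 20. The penis mean of 215 ± 25.0 CPM (SD, n = 3) was 30.7-fold the limb mean. All penis libraries were far above both limb libraries, and the log2 difference was 4.89 ± 0.16 (edgeR adjusted p = 1.5e-13).

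The share of endothelial cells with a Bmp6 UMI was 35.5%, 43.3% and 42.5% in penis, against 4.64% and 4.84% in the limbs. At 2000 UMIs per cell it was 19.5%, 24.1% and 23.8% against 1.02% and 1.31%. In myeloid cells, the background, the unthinned share was 2.20% to 4.72% in penis and 1.17% and 1.21% in limb. The endothelial share lay above the myeloid share in every library, by far more in penis.

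In mesenchyme Bmp6 stood at 75.6, 68.0 and 74.6 CPM in penis, 15.8 in forelimb and 14.9 in hindlimb, a difference of 2.22 ± 0.07 (edgeR adjusted p = 3e-08). Among chondrocyte-gated cells the tissues overlapped, at 79.1, 87.8 and 86.5 CPM in penis, 91.0 in forelimb and 64.9 in hindlimb (0.14 ± 0.14, adjusted p = 0.41). That difference was 1.50 and called with gates set at 2000 UMIs, and turned to -0.094 with 1 marker fewer and to -0.10 without the hindlimb library. The penis-limb difference of Bmp6 was larger in endothelium than in mesenchyme by 2.68 ± 0.26 (edgeR adjusted p = 1.1e-10) and smaller in the chondrocyte gate by 2.08 (interaction -2.08 ± 0.16, adjusted p = 3.3e-13). Where cells below 2000 UMIs were left out and the rest thinned to 2000 before gating, the chondrocyte interaction fell to -0.46 and was no longer called.

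Epithelial Bmp6 was low, at 9.76, 12.4 and 13.4 CPM in penis against 4.02 and 2.65 (1.87 ± 0.46, edgeR adjusted p = 0.0063). This call was lost when penis library 2 or 3, or either limb library, was left out, with DESeq2 and with 1 marker fewer. Within the chondrocyte gate, cells with at least 2 of the genes Col10a1, Ihh, Pth1r and Panx3 are called hypertrophic here. Such genes mark prehypertrophic as well as hypertrophic chondrocytes, which were not told apart. The cells so called held Bmp6 at 329.7, 416 and 327 CPM in penis, 422 in forelimb and 206 in hindlimb. The other chondrocyte cells held 51.5, 45.3 and 46.6 CPM against 60.1 and 52.6. The hypertrophic cells numbered 13, 17 and 13 in penis and 105 and 129 in limb. In both tissues the hypertrophic cells were thus the higher.

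**Figure D2:**
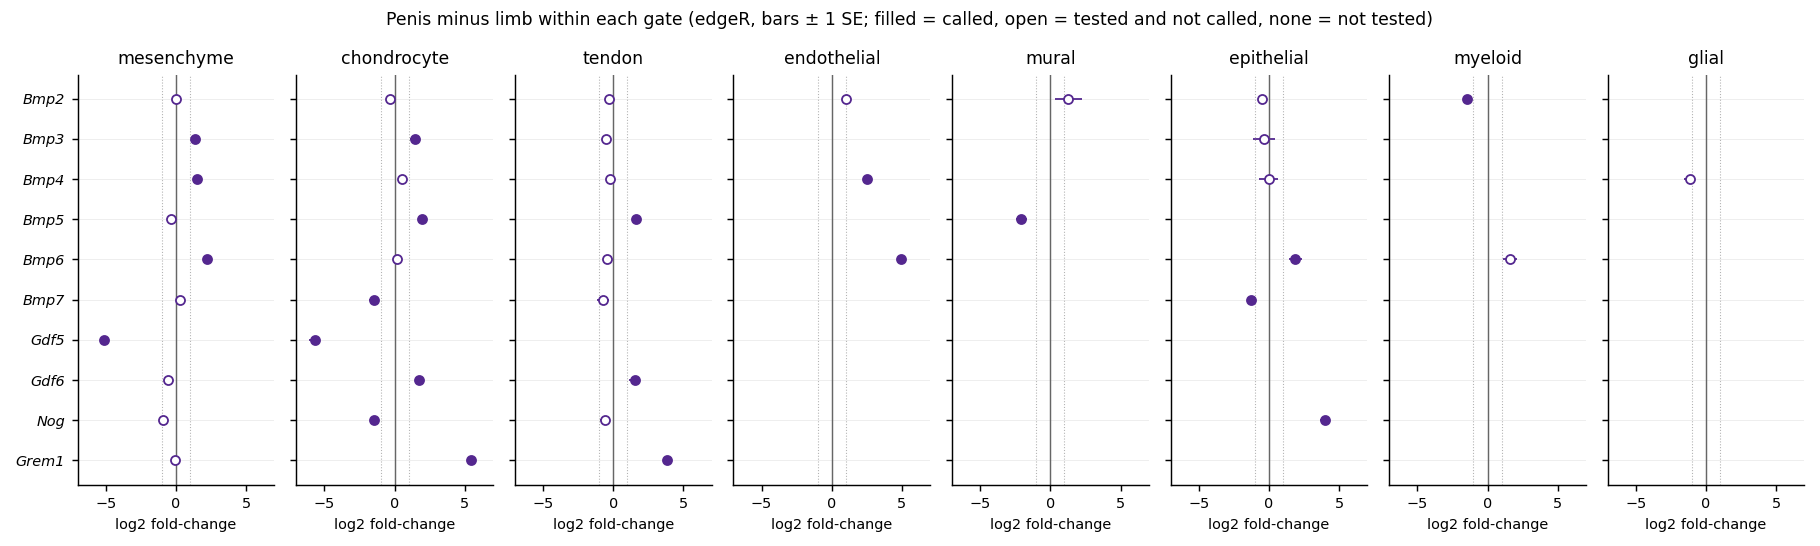
Log2 fold-change, penis minus limb, with its standard error, for each gene in each gate; filled points were called, open points were tested and not called, a missing point was not tested, and dotted lines mark a log2 fold-change of 1 in size. The values run from -5.71 for Gdf5 to 5.43 for Grem1, both in the chondrocyte gate.

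Bmp3, an atypical ligand known to oppose other BMPs in bone, stood in mesenchyme at 46.0, 46.3 and 37.4 CPM in penis, 16.5 in forelimb and 16.7 in hindlimb. No library of penis overlapped one of limb, and the difference was 1.36 ± 0.11 (edgeR adjusted p = 5e-06). For chondrocyte-gated cells the penis libraries spread widely, at 19.4, 7.38 and 23.5 CPM against 6.85 and 5.46. The second penis library lay near the limb values. The difference of 1.44 ± 0.33 (edgeR adjusted p = 0.0027) was lost without penis library 1 (1.30) or 3 (1.17) and with 1 marker more required of each cell (0.76).

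Bmp2, a ligand known for its part in ossification and fracture repair, did not pass the limits in mesenchyme, with 34.1, 35.2 and 31.7 CPM in penis, 30.3 in forelimb and 37.9 in hindlimb. The 2 limb libraries lay on either side of the penis libraries (-0.04 ± 0.10, edgeR adjusted p = 0.75), and the sign changed between settings. Chondrocyte-gated cells held it at 33.8, 52.7 and 51.5 CPM against 58.6 and 60.2 (-0.35 ± 0.15, adjusted p = 0.063). In myeloid cells Bmp2 was lower in penis, at 6.16, 5.91 and 5.71 CPM against 19.4 and 15.0 (-1.48 ± 0.27, edgeR adjusted p = 0.00094). The penis values rested on 11, 9 and 7 UMIs, and the call was lost without the forelimb library (-1.28, adjusted p = 0.019) and with 1 marker fewer (-1.17, adjusted p = 0.017).

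Bmp7, a ligand known from kidney and skeletal development, was lower in penis epithelium. It stood there at 18.2, 18.1 and 18.0 CPM in penis, 56.3 in forelimb and 35.3 in hindlimb. The penis libraries were nearly equal and the limb libraries differed from each other (-1.27 ± 0.23, edgeR adjusted p = 0.00055). Without the forelimb library the difference was -0.90 and was not called. In mesenchyme Bmp7 stood at 21.9, 17.5 and 17.2 CPM against 16.2 and 14.7 (0.27 ± 0.11, adjusted p = 0.056). The epithelial difference lay below the mesenchyme one by 1.51 (interaction -1.51 ± 0.33, edgeR adjusted p = 0.00073), a call that was lost without the forelimb library (-1.22).

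Chondrocyte-gated cells held Bmp7 at 3.60, 2.81 and 12.9 CPM in penis and 18.5 and 15.1 in the limbs. The third penis library was well above the other penis libraries and close to the hindlimb. The difference was -1.46 ± 0.36 (edgeR adjusted p = 0.0046) and became -2.34 without that library. With 1 marker fewer required of each cell it was -0.05, and the call was also lost in 6 other settings, which include leaving out the first or second penis library or the forelimb library.

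Bmp5, a ligand whose loss gives the short ear mouse, a mutant with reduced cartilages, was higher in the skeletal gates of the penis. In the chondrocyte gate it stood at 173, 194 and 193 CPM in penis, 42.4 in forelimb and 56.1 in hindlimb. The penis mean was 187 ± 12.0 CPM (SD, n = 3), 3.79-fold the limb mean, with no overlap (1.94 ± 0.12, edgeR adjusted p = 4.4e-08). It was 1.83 with 1 marker more, 1.77 with 1 fewer and 1.42 with gates set at 2000 UMIs, and called in each. At 2000 UMIs per cell, 26.4% to 31.4% of penis chondrocyte-gated cells and 7.47% and 9.23% of limb ones had a Bmp5 UMI. The share in myeloid cells at that depth was at most 0.27%. In the tendon gate Bmp5 stood at 61.3, 83.9 and 83.5 CPM against 17.8 and 32.9 (1.62 ± 0.20, edgeR adjusted p = 1.4e-05).

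In the mesenchyme gate Bmp5 stood at 15.3, 12.8 and 13.3 CPM in penis, 16.9 in forelimb and 18.2 in hindlimb (-0.37 ± 0.08, adjusted p = 0.0039, below the fold limit). This difference turned to 0.21 with 1 marker more and to 0.62 with gates set at 2000 UMIs, neither called. The difference between the chondrocyte and mesenchyme gates was 2.29 ± 0.18 (edgeR adjusted p = 5.8e-13), and 0.79 and not called with gates set at 2000 UMIs. Mural cells, the pericytes and smooth muscle around vessels, held less Bmp5 in penis, at 10.2, 23.7 and 30.5 CPM against 78.2 and 90.0. These values came from 7, 14 and 16 UMIs against 17 and 17. The difference of -2.06 ± 0.41 (edgeR adjusted p = 0.00078) was lost without either limb library and with 1 marker more (-1.75, adjusted p = 0.012).

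Gdf5, the ligand that marks forming joints, was nearly at 0 in the penis. Over all kept cells the penis libraries held 21, 25 and 16 Gdf5 UMIs, against 1072 in forelimb and 1874 in hindlimb. The chondrocyte-gated cells of the penis libraries held 0, 3 and 4 UMIs (0, 1.05 and 1.84 CPM) and the limb libraries 466 and 1085 (37.5 and 59.3 CPM). The groups were far apart, with a difference of -5.71 ± 0.42 (edgeR adjusted p = 2.2e-07). Gdf5 passed the filter on low counts in this gate through the limb libraries alone, so this p-value supports nothing further. It was -5.20 with 1 marker more, -6.16 with 1 fewer and -4.42 with gates set at 2000 UMIs, and called in each. A Gdf5 UMI was seen in 0 of 215 cells, which allows a share of up to 1.40%, and in 0.93% and 2.25% of the cells of that gate in the penis libraries, against 11.1% and 15.8% of the limb cells, whose median depth was lower. In myeloid cells the share was 0% in penis, which allows up to 1.42% to 1.80%, and at most 0.61% in limb.

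In mesenchyme Gdf5 stood at 0.136, 0.185 and 0.182 CPM in penis and at 4.95 and 6.91 in the limbs (-5.16 ± 0.24, edgeR adjusted p = 2.6e-07). The tendon gate did not follow, with 2.58, 4.82 and 1.42 CPM in penis and 1.90 and 3.05 in the limbs. The groups overlapped there, on 7, 12 and 3 UMIs against 11 and 18, and Gdf5 was not tested in that gate. Within the penis, Gdf5 was higher in the tendon gate than in mesenchyme by 4.14 ± 0.60 on the log2 scale (edgeR adjusted p = 2.2e-06).

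Gdf6, a relative of Gdf5 that also acts at joints, was sparse. In the chondrocyte gate it stood at 7.20, 7.73 and 6.44 CPM in penis, 2.58 in forelimb and 1.86 in hindlimb, from 14 to 34 UMIs per library. The groups did not overlap (1.74 ± 0.31, edgeR adjusted p = 0.00045). Without the hindlimb library the difference was 1.47 and was not called, and it was 1.69 with 1 marker more and 1.17 with 1 fewer, both called. In the tendon gate the values were 7.01, 6.02 and 4.74 CPM against 1.90 and 2.37 (1.51 ± 0.37, adjusted p = 0.004), a call lost when the first or second penis library or either limb library was left out, with DESeq2 and with 1 marker fewer (0.83). In mesenchyme the order was turned, at 2.44, 2.71 and 2.52 CPM in penis against 3.70 and 3.96 (-0.60 ± 0.12, adjusted p = 0.0016, below the fold limit). The difference between the chondrocyte and mesenchyme gates was 2.31 ± 0.42 (edgeR adjusted p = 6.3e-05), and 2.35 and not called (adjusted p = 0.10) with gates set at 2000 UMIs.

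Grem1, an antagonist of Bmp2, Bmp4 and Bmp7 that is known from the limb bud for sustaining outgrowth, had the largest increase of the 10 genes in the chondrocyte gate. It stood at 495, 578.0 and 507 CPM in penis, 10.95 in forelimb and 13.7 in hindlimb, from 1375, 1645 and 1103 UMIs against 136 and 251. The penis mean of 527 ± 45.0 CPM (SD, n = 3) was 42.7-fold the limb mean. The log2 difference was 5.43 ± 0.14 (edgeR adjusted p = 7.4e-11). It was 5.66 with 1 marker more required of each cell and 5.36 with gates set at 2000 UMIs, and it was called in every alternative run, with a lowest value of 4.71.

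A Grem1 UMI was seen in 59.5%, 63.3% and 60.7% of penis chondrocyte-gated cells, against 4.40% in forelimb and 7.01% in hindlimb. At 2000 UMIs per cell these shares were 40.7%, 43.5% and 44.3% against 1.64% and 2.74%. Myeloid cells held a Grem1 UMI in at most 0.99% of cells. In the tendon gate Grem1 stood at 246, 296 and 326 CPM in penis, 23.2 in forelimb and 17.8 in hindlimb (3.85 ± 0.15, edgeR adjusted p = 4.9e-11). With 1 marker fewer this difference fell to 2.58, and with 1 more it was 4.68, both called. All penis libraries lay above both limb libraries there.

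In the mesenchyme gate Grem1 stood at 14.2, 13.9 and 17.9 CPM in penis, 18.2 in forelimb and 13.3 in hindlimb. Penis and limb libraries overlapped (-0.06 ± 0.14, edgeR adjusted p = 0.70). That value depended on how the gates were set: it was 0.94 with 1 marker more, -0.99 with 1 fewer, and 1.65 and called (edgeR adjusted p = 1.3e-06) with gates set at 2000 UMIs. Without the forelimb library it was 0.19 and without the hindlimb library -0.29. The chondrocyte difference exceeded the mesenchyme difference by 5.43 ± 0.22 (edgeR adjusted p = 5.6e-21), and by 3.64, still called, with gates set at 2000 UMIs. Of all Grem1 UMIs of the penis, 45.1% ± 3.89 (SD, n = 3) came from the chondrocyte gate and 23.2% ± 2.57 from the tendon gate. In the limbs 73.8% of the forelimb and 67.0% of the hindlimb Grem1 UMIs came from mesenchyme.

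Nog, an antagonist that binds Bmp2, Bmp4, Bmp7 and Gdf5 among others, and whose loss fuses joints, was higher in penis epithelium and lower in the penis chondrocyte gate. In epithelium (Epcam, Krt5, Krt14 and others) it stood at 51.1, 48.9 and 55.3 CPM in penis, from 157, 162 and 132 UMIs. The limb libraries held 5 and 2 UMIs, 5.03 CPM (95% counting interval 1.63 to 11.7) and 1.77 CPM (0.214 to 6.38). The penis mean of 51.8 ± 3.29 CPM (SD, n = 3) lay far above both. The difference was 4.00 ± 0.34 (edgeR adjusted p = 1.3e-07) and ran from 3.40 to 4.89 when 1 library was left out. Nog passed the filter on low counts in this gate through the penis libraries alone, so this p-value supports nothing further.

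A Nog UMI was seen in 26.6%, 22.4% and 28.0% of penis epithelial cells, against 3.23% and 1.09% in the limbs, at medians of 6251.5 to 9284 UMIs against 3996 and 4519. Myeloid cells had a Nog UMI in 0 of 212, 182 and 167 penis cells, which allows shares of up to 1.42% to 1.80%, and in 0.36% and 0.50% of the limb cells. At 2000 UMIs per cell the epithelial shares were 8.20%, 7.35% and 10.2% in penis against 0.70% and 0.32% in limb. Chondrocyte-gated cells held Nog at 13.0, 12.7 and 12.4 CPM in penis and at 34.3 and 38.8 in the limbs (-1.50 ± 0.14, edgeR adjusted p = 2.3e-06). The penis libraries lay close together and were below both limb libraries. With 1 marker more it was -1.38 and with 1 fewer -1.81, both called. With gates set at 2000 UMIs it was -0.85 and was not called, on 49, 34 and 27 penis cells.

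Muscle cells of the limbs held Nog at 19.9 and 23.8 CPM. In mesenchyme it stood at 2.89, 3.17 and 3.28 CPM in penis and at 4.79 and 7.11 in the limbs, a difference of -0.96 ± 0.17 just below the fold limit. It passed that limit without the forelimb library (-1.20) and with gates set at 2000 UMIs (-1.02). Its penis-limb difference in epithelium exceeded that in mesenchyme by 4.99 ± 0.35 (edgeR adjusted p = 3e-13). Epithelium gave 42.2% ± 1.40 (SD, n = 3) of the Nog UMIs of the penis. In forelimb and hindlimb the chondrocyte gate gave 31.6% and 37.9%, and muscle 16.5% and 13.5%.

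**Figure D3:**
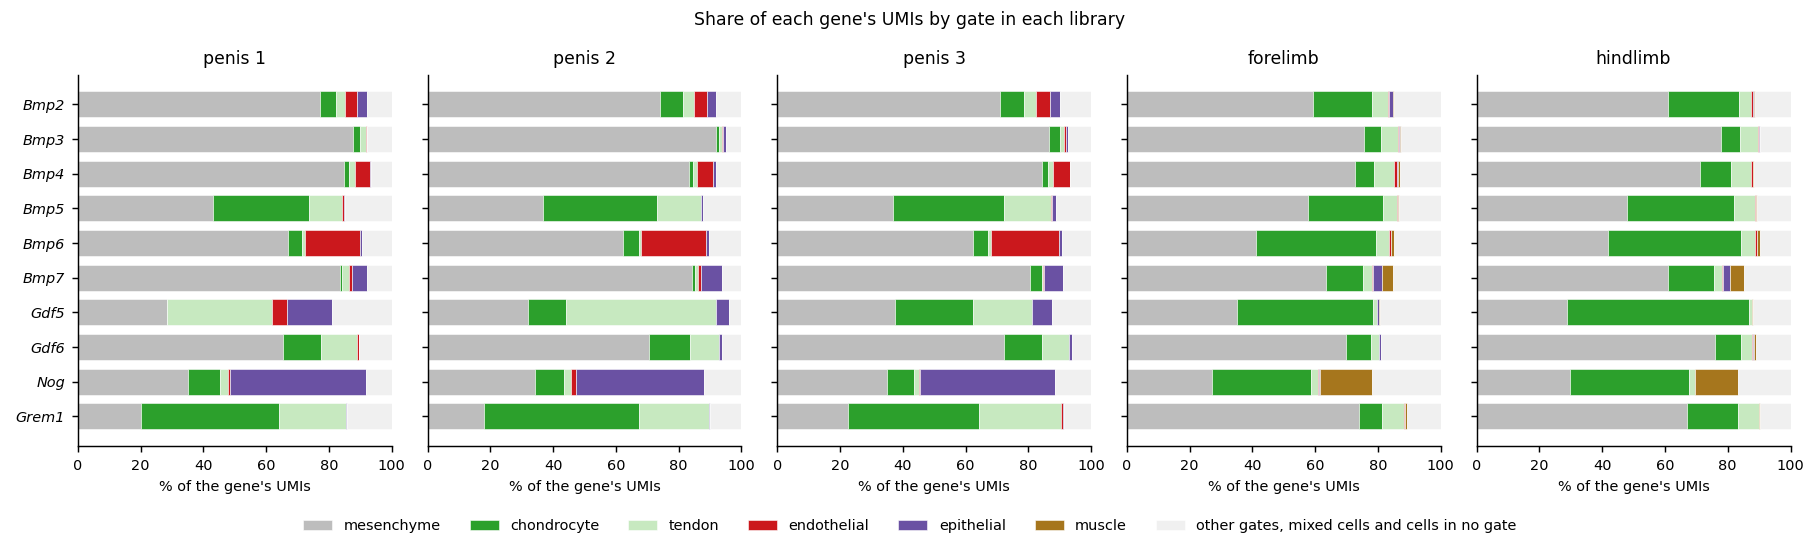
Share of the UMIs of each gene that came from each gate, in percent, with 1 panel per library and 1 stacked bar per gene. Grem1 UMIs come mostly from the chondrocyte and tendon gates in all 3 penis libraries and from mesenchyme in both limb libraries, and epithelium gives 40.6% to 43.3% of Nog UMIs in penis.

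The 250 bases before the transcription start of 3 genes that stood higher in penis gates are shown, for Grem1 and Bmp5, which did so in the skeletal gates, and for Bmp4, which did so in mesenchyme and endothelium. They are RefSeq sequence of build GRCm38.p6, read 5′ to 3′ on the strand of the gene: chr2:113758649-113758898, minus strand, for Grem1, chr9:75775115-75775364, plus strand, for Bmp5 and chr14:46390670-46390919, minus strand, for Bmp4.
Grem1: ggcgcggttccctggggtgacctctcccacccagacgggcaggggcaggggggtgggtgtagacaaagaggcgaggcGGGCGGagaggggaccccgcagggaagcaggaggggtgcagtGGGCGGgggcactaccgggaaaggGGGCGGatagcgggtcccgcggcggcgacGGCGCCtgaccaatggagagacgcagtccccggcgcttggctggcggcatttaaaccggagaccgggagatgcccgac
Bmp5: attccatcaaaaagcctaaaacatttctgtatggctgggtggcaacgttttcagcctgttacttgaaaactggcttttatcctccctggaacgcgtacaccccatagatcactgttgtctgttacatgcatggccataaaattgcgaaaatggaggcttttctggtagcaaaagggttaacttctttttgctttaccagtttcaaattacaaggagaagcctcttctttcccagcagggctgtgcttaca
Bmp4: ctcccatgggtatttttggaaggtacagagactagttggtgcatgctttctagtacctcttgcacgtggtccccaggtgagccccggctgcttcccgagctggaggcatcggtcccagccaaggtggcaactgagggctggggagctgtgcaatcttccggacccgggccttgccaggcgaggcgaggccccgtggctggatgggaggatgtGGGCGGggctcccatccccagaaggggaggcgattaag
Capitals mark 3 motifs searched on both strands: AGAACA, the core element of androgen receptor binding, GGCGCC, a GC-rich element that BMP-responsive Smads bind, and GGGCGG, the GC box. AGAACA was in none of the 4 windows that had an entry, which are these and that of Bmp6, and in 16.1% of 32851 promoter windows of that length. GGCGCC was in 1 of the 4, Grem1, and in 9.59% of all. GGGCGG was in 3 of the 4, Bmp4, Bmp6 and Grem1, and in 32.7% of all. Such a match is a run of letters, not a site shown to be bound, and its absence speaks of these windows only.

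In GENCODE coordinates of GRCm38 the genes shown lie at chr2:113746164-113758646 (Grem1), chr9:75775364-75900310 (Bmp5) and chr14:46383520-46390669 (Bmp4). Nog lies at chr11:89300638-89302332, Gdf5 at chr2:155941023-155945367 and Bmp6 at chr13:38345107-38500302. Bmp2 lies at chr2:133552159-133562885, Bmp3 at chr5:98854415-98884396, Bmp7 at chr2:172868012-172940321 and Gdf6 at chr4:9844372-9862345.

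Mesenchyme was split further by pairs of genes, a cell counting as positive with at least 2 UMIs over the pair, and cells positive for several pairs were kept apart. Cells positive for Srd5a2/Sim1, the first of which encodes a steroid 5-alpha reductase, numbered 760, 806 and 599 in penis, 52 in forelimb and 115 in hindlimb. They held the highest Bmp3 of the penis subsets, at 129, 155 and 129 CPM, against 10.4 and 15.5 in limb. Bmp4 in these cells was 155, 154 and 144 CPM against 7.80 and 16.5, and Bmp2 was 77.2, 83.3 and 66.6 CPM against 52.0 and 52.7. Bmp7 was 44.1, 38.8 and 39.4 CPM in the penis cells against 18.2 and 10.3. For all 4 genes the penis libraries lay above both limb libraries, on few limb UMIs. No test was run on the subsets.

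Cells positive for Sox9/Sox5, transcription factors of cartilage precursors, held Grem1 at 81.9, 74.9 and 110.2 CPM in penis and 10.8 and 13.2 in limb. Their Bmp5 was 116, 105 and 89.3 CPM against 17.4 and 21.3. In the mesenchyme cells that passed no pair, Grem1 was 9.11, 7.27 and 4.83 CPM in penis against 22.0 and 15.3, and Bmp5 was 7.73, 2.85 and 5.02 CPM against 17.7 and 16.6. The order of the tissues was thus turned for both genes between these subsets. Gdf5 in Sox9/Sox5 cells was 0.244, 0.511 and 0.599 CPM in penis and 31.3 and 21.1 in limb.

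Bmp6 was split between other subsets. Cells positive for Angpt2/Ccl19, an angiopoietin and a chemokine, held it at 118, 111 and 112 CPM in penis against 12.4 and 6.38. Cells positive for Pi16/Clec3b, genes of a widespread fibroblast type, held it at 3.24, 3.84 and 2.52 CPM in penis against 18.9 and 13.9. The penis was the higher in the first subset and the lower in the second, with no overlap in either. Nog in hypertrophic cells of the chondrocyte gate was 61.6, 21.4 and 16.2 CPM in penis and 81.3 and 96.3 in limb. The penis values rest on few cells and few UMIs.

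**Figure D4:**
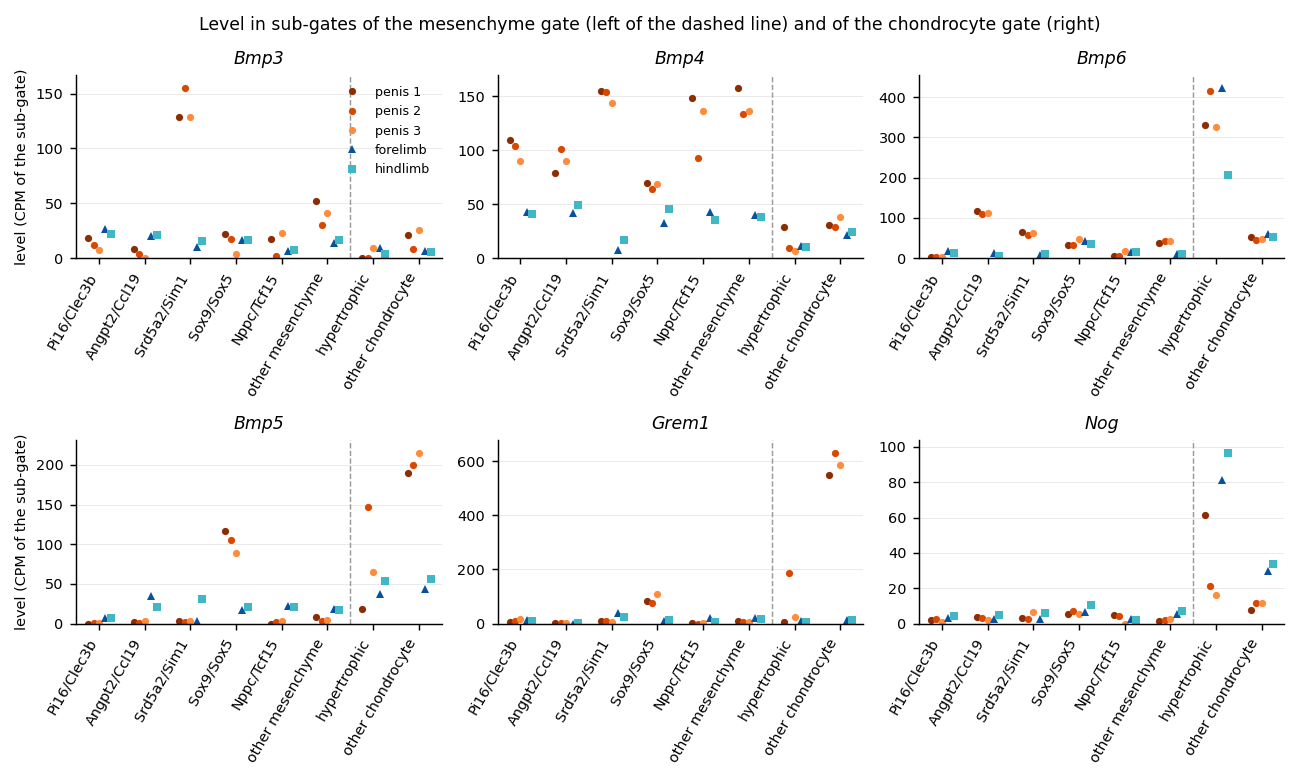
Levels in CPM (linear axes from 0) of Bmp3, Bmp4, Bmp5, Bmp6, Grem1 and Nog in subsets of the mesenchyme gate, left of the dashed line, and of the chondrocyte gate, right of it, with 1 point per library. Grem1 in Sox9/Sox5 cells is 74.9 to 110.2 CPM in penis and 10.8 and 13.2 CPM in limb, and Bmp6 is higher in hypertrophic than in other chondrocyte-gated cells in all 5 libraries.

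Penis cells of the chondrocyte gate were then divided by whether they had a Grem1 UMI. The 128, 136 and 108 cells with one held Col2a1 at 180, 2288 and 217 CPM, and the 87, 79 and 70 cells without one at 4822, 3438 and 5565 CPM. In penis libraries 1 and 3 the cells with Grem1 thus held little Col2a1, and the second library stood apart. Bmp3 was 1.80, 0 and 0 CPM in cells with Grem1 and 45.9, 21.8 and 57.8 CPM in cells without. Bmp4 was 13.2, 21.8 and 5.42 CPM against 57.6, 37.4 and 76.0. Bmp5 did not divide so, with 191, 192 and 183 CPM against 146, 197 and 207. Scx, the tendon transcription factor, was 37.1, 26.0 and 26.3 CPM in cells with Grem1 and 10.8, 3.12 and 4.53 CPM in cells without. In limb cells Col2a1 differed less, at 5064 and 3911 CPM with Grem1 and 5299 and 4654 CPM without.

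In the penis tendon gate, cells with Grem1 held Scx at 276, 234 and 258 CPM and cells without it at 101.0, 84.5 and 139 CPM. The limb tendon gate had the reverse order, at 208 and 186 CPM with Grem1 and 306 and 299 CPM without. In the penis endothelial gate the 160, 197 and 156 cells with a Bmp6 UMI held Bmp4 at 118, 115 and 120.1 CPM, and the others at 24.4, 19.5 and 15.4 CPM. Limb endothelial cells with Bmp6 numbered 16 and 14 and held Bmp4 at 11.6 and 9.09 CPM, near the 14.4 and 7.78 CPM of the rest. These cells were chosen by their own UMIs, and deeper cells have more of them: the medians were 9881, 9509 and 9593.5 UMIs in penis endothelial cells with Bmp6 and 8832, 8337 and 8015 in those without. The values are therefore a description with no test.

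**Figure D5:**
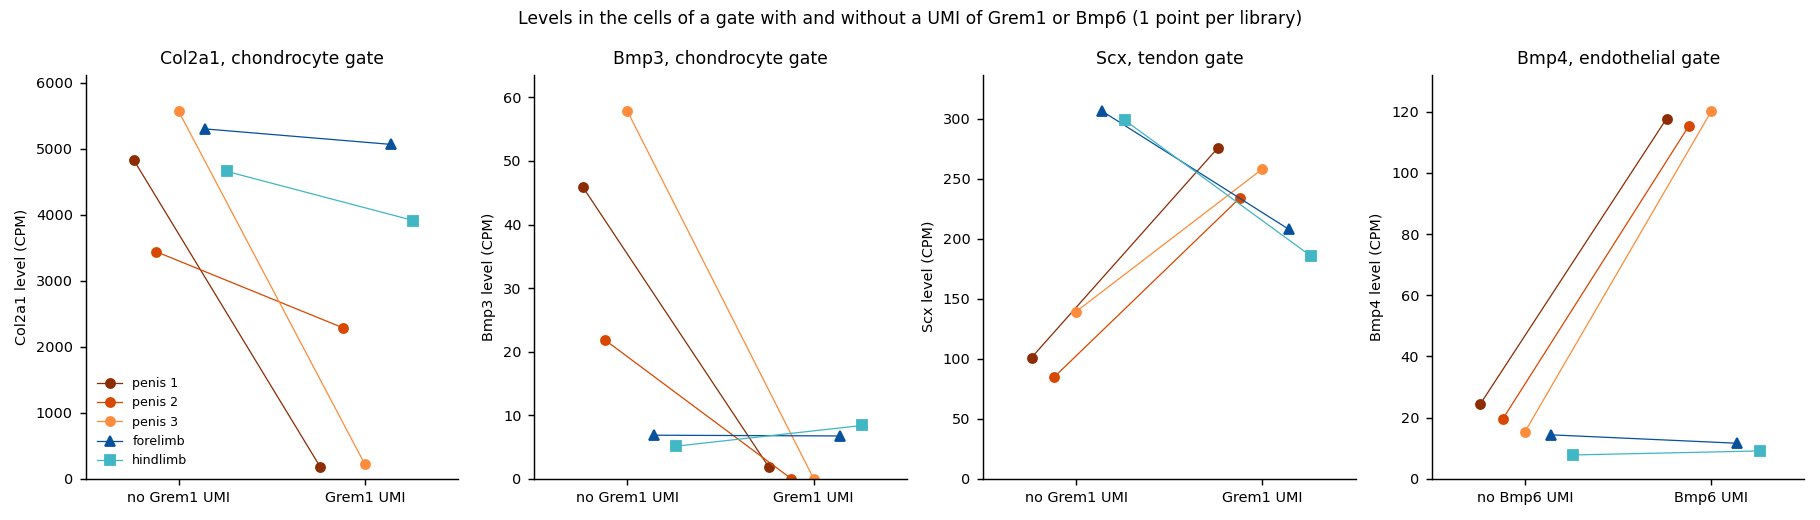
Levels in CPM (linear axes from 0) of Col2a1, Bmp3, Scx and Bmp4 in cells with and without a UMI of Grem1 or Bmp6, for the gate named on each panel; lines join the points of 1 library. Bmp4 in penis endothelial cells is 115 to 120.1 CPM with Bmp6 and 15.4 to 24.4 CPM without.

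Within each tissue every gate was compared with mesenchyme in 1 joint fit that blocked on library. In the penis 51 of 70 pairs of gene and gate were called, 10 higher and 41 lower, where 23.7% of all genes' tests were called, 9.99% higher and 13.7% lower. In the limbs 45 of 80 were called, 7 higher and 38 lower, against 19.5% of all, 7.96% higher and 11.6% lower. A gene could enter that fit through other gates, so all 10 were tested in each gate. Bmp7, Gdf6 and Nog in penis myeloid cells and Nog in penis mural cells were called lower at 0 CPM. The Nog mural call held in 6 of 12 settings. These counts thus describe the genes and support nothing further. In the penis chondrocyte gate Grem1 (5.14 ± 0.14), Bmp5 (3.77 ± 0.12), Nog (2.05 ± 0.20) and Gdf6 (1.50 ± 0.31) were higher than in mesenchyme. With gates set at 2000 UMIs the Grem1 difference fell to 3.27 and the Bmp5 difference to 2.60, while that of Nog was 3.09, all called. With 1 marker more Grem1 gave 4.32 and Bmp5 3.18. The Gdf6 call was lost with gates set at 2000 UMIs (0.07, edgeR adjusted p = 0.96) and with 1 marker more (0.86, adjusted p = 0.11). In the tendon gate Grem1 (4.30 ± 0.14), Gdf5, Bmp5 (2.52 ± 0.14) and Gdf6 (1.29 ± 0.33) were higher. With gates set at 2000 UMIs Grem1 gave 2.70 and Bmp5 1.69 there, both called, and with 1 marker more Grem1 gave 3.71. That Gdf6 call was lost without any 1 of the penis libraries (1.11 to 1.40), with gates set at 2000 UMIs (edgeR adjusted p = 0.20) and with 1 marker more (0.88). Bmp6 (1.64 ± 0.10) was higher in penis endothelium and Nog (4.33 ± 0.13) in penis epithelium.

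In the limbs the chondrocyte gate held more Gdf5 (3.02 ± 0.14), Nog (2.63 ± 0.11), Bmp6 (2.33 ± 0.12) and Bmp5 (1.48 ± 0.14) than mesenchyme. Bmp7 (1.74 ± 0.28) was higher in limb epithelium, Nog (2.23 ± 0.12) in muscle and Bmp5 (2.17 ± 0.41) in mural cells. The Bmp7 call was lost without the forelimb library (1.37, edgeR adjusted p = 0.013), the Bmp5 call without either limb library (2.14 and 2.09), and the Nog call with gates set at 2000 UMIs (0.77). The penis-limb difference itself differed from that of mesenchyme in 9 of 30 tests over the chondrocyte, epithelial and endothelial gates, 5 above and 4 below, where 8.58% of all genes' tests were called, 4.14% above and 4.43% below. Of the chondrocyte tests 6 of 10 differed (7.80% of all genes), and of these Bmp7 was lower by 1.76 (interaction -1.76 ± 0.34, edgeR adjusted p = 0.00011).

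Other genes of the pathway were counted in lists by the same test and limits, and the log2 fold-change of each gene named is given in parentheses. Here too a gene that passes the filter on low counts through its higher tissue alone had to differ. These counts thus describe the genes and support nothing further. In mesenchyme 12.4% of all genes were higher and 12.9% lower in penis. There 4 of the 9 target genes tested were higher in penis, among them the homeobox genes Msx1 (2.40), Msx2 (2.28) and Dlx5 (2.28), and none was lower. The call of the other, Id4, was lost without the hindlimb library (0.96) and with gates set at 2000 UMIs (0.88). Of 6 other ligands tested, Gdf10 (3.50) and Gdf2 (2.97, at 0.528 against 0.0648 CPM) were higher and Bmp8b (-1.13) was lower. Gdf2 passed the filter on low counts through the penis libraries alone. The Bmp8b call was lost without penis library 1 or 3 and with 1 marker fewer. Of 7 receptors Acvrl1 (1.62), an endothelial type I receptor, was called, and of 6 Smads none. Of 13 other antagonists and ligand-binding proteins 6 were higher, with Bmper (3.73), Chrdl2 (3.29) and Fstl3 (2.46) leading, and 2 were lower. Among the higher, the Nbl1 call was lost without penis library 1 (0.98) or the hindlimb library (0.87) and with 1 marker more (0.995). The Chrdl1 call was lost without the hindlimb library (0.91).

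In the chondrocyte gate, where 10.1% of all genes were higher and 7.81% lower, 2 of the 9 target genes were higher, Dlx5 (2.30) and Msx1 (1.68), and none was lower. The receptor Acvrl1 (1.93) was higher, and Bmpr1b (-1.12), a type I receptor of cartilage, was lower. The inhibitory Smad7 (-1.13) was the only Smad called. With 1 marker fewer the Bmpr1b (-0.99) and Smad7 (-0.93) calls were lost. Of 12 other antagonists tested 3 were higher and 3 were lower, with Sostdc1 (-4.48) and Gpc3 (-2.38) among the lower. The higher ones, named after their values were seen, were Chrdl2 (2.07), Bmper (1.66) and Fst (1.42). The Chrdl2 call was lost without penis library 2 or 3 or the forelimb library, and the Fst call without the hindlimb library, with gates set at 2000 UMIs and with 1 marker more. No other ligand of the 3 tested was called.

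In endothelium, where 7.22% of all genes were higher and 6.34% lower, 5 of the 6 other antagonists tested were higher, among them the activin-binding follistatin gene Fst (3.25), Bmper (2.93) and Nbl1 (2.45), and 1 was lower. Gdf10 (2.79) and the target gene Id2 (1.29) were higher there, and Bmp8a (-1.30) and Bmpr1b (-1.60) were lower. In myeloid cells, the background, Gdf10 (2.44) and Bmper (2.05) were called higher too, at means of 12.9 and 15.9 CPM in penis, near the 19.5 and 23.0 CPM of penis endothelium. Bmper was also called in glia (2.38). The endothelial difference of Gdf10 and Bmper was tested against that of mesenchyme only, with values not given here, and not against those of the other gates. In epithelium Bmp8a (-3.69), Bmpr1b (-1.30), the decoy receptor Bambi (-1.23) and Fst (-1.96) were lower, and Msx2 (1.11) was higher. The Bambi call was lost in 8 of the 12 alternatives and the Msx2 call in 7.

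The genes most like each of the 10 were ranked by Pearson's r over the 44 sums of library and gate, among 12426 genes with a mean of at least 5 CPM. The sums are those of at least 20 cells, the red blood cell gate of both limb libraries included. They share libraries and gates, so r is a description. Grem1 was most like Prg4 (0.93), the joint lubricant lubricin, followed by Wif1 and Fbxo2. Bmp5 was most like Vasn (0.89), Aspn and Prrx1, and Gdf6 most like Hs3st5 (0.88). Bmp3 came closest to Rspo2 (0.86), Bmp6 to Mme (0.85), Bmp4 to Zfp449 (0.84) and Bmp7 to Crabp2 (0.82). The values were 0.80 for Bmp2 with Sdr39u1, 0.80 for Nog with Gas5 and 0.76 for Gdf5 with Epyc, a cartilage proteoglycan. Among the 10 genes themselves the closest pairs were Gdf6 with Grem1 (0.86), Bmp5 with Grem1 (0.78) and Bmp4 with Bmp6 (0.74), and the least alike was Bmp4 with Nog (0.05).

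The order of gates differed by gene within the penis. Grem1 fell from chondrocyte to tendon to mesenchyme with no overlap of libraries between these neighbours. Bmp2 in chondrocyte, mesenchyme, mural and tendon gates overlapped from each to the next, as did Bmp7 in mesenchyme and epithelium and Gdf6 in chondrocyte and tendon gates. Bmp4 was highest in mesenchyme and then in endothelium. In the limbs Bmp5 was highest in mural cells, Bmp7 in epithelium and Nog in the chondrocyte gate.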

How the data were processed

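The authors dissociated the tissues, prepared libraries with the 10x Genomics 3′ kit v3.1 and ran Cell Ranger 7.0.0 on mm10. They deposited its UMI counts, neither filtered further nor normalized, for 10429, 11397 and 8411 penis barcodes, 28266 forelimb and 25937 hindlimb barcodes. Whether introns were counted is not given in the sources used here.

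Barcodes were kept by the limits of the study's methods, read as genes detected per cell (500 to 6000 in penis, 100 to 9000 in forelimb, 100 to 9500 in hindlimb), with mitochondrial limits of 5% and 10% and log10 genes per log10 UMI of 0.8 or more. This left 68417925, 68127411 and 51529854 UMIs in penis, 142718533 in forelimb and 148752710 in hindlimb. No doublet caller was run. Sums per library and gate with 20 or more cells throughout were tested with edgeR 4.0.16 (limma 3.58.1, R 4.3.3) by its quasi-likelihood test after TMM and filterByExpr, and p-values were adjusted by Benjamini-Hochberg over every gene in the fit. Comparisons of gates within a tissue and of penis-limb differences between gates came from 1 joint fit blocked on library. The penis-limb fit was tried on simulated counts for the mesenchyme and chondrocyte gates only. The joint fit was not tried on simulated counts. DESeq2 1.42.0, RLE size factors, no low-count filter, other gates, all barcodes and leaving out each library were alternatives. Of these, DESeq2 and gates with 1 marker fewer were not run on the joint fit. Standard errors were derived from the test, as the size of the log2 fold-change divided by the root of F. Shares of cells with a UMI at an equal depth are exact expected shares at 2000 UMIs per cell, with shallower cells left out. Counting intervals are 95% exact Poisson intervals and cover counting error only. Levels and shares were computed with Python 3.11.15, pandas 2.3.3, scipy 1.17.1 and numpy 2.4.6, and drawn with matplotlib 3.10.9.

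The genes, the marker lists and the pathway lists were chosen with earlier results of these data known. All 10 genes are named. For the mesenchyme, chondrocyte, epithelial and endothelial gates, the only gates whose pathway lists are described, up to 3 called genes of each list with the largest absolute log2 fold-change are named (1 such gene is not reported here), and for each of the 10 genes the 3 genes with the highest Pearson's r of log2 CPM (pseudocount 1) were taken as most like it. Promoter windows had a RefSeq entry for 4 of the 10 genes. That of Bmp6 lies in an annotated untranslated region and is not printed.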

Additional observations from a re-analysis of the deposited data

Results flagged for a closer look

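In 9 cases the penis-limb difference of a gene in 1 gate differed from its penis-limb difference in mesenchyme, by a test of that difference in the joint edgeR fit. In the chondrocyte gate the log2 difference exceeded that in mesenchyme by 5.43 for Grem1, 2.31 for Gdf6 and 2.29 for Bmp5. It lay below that in mesenchyme for Bmp6 (-2.08), Bmp7 (-1.76) and Bmp4 (-1.03). In the epithelial gate it was above for Nog (4.99) and below for Bmp7 (-1.51), and in the endothelial gate it was above for Bmp6 (2.68). Gdf5, which was lower in penis in both the chondrocyte and mesenchyme gates, gave -0.66 ± 0.90 for the difference between them (edgeR adjusted p = 0.67). With gates set at 2000 UMIs per cell the chondrocyte calls of Gdf6, Bmp5, Bmp6 and Bmp4 were lost.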

How the results depend on the processing

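The number of pairs of gene and gate called between penis and limb, 21 in the fit reported, was 18 with DESeq2, 21 with RLE size factors, 23 with no filter on low counts, 20 with gates at 2000 UMIs per cell, 21 and 20 with 1 marker more or fewer, 22 over all barcodes and 16 to 20 with 1 library left out. Within the penis the count of 51 ran from 46 to 52, within the limb that of 45 from 37 to 50, and the 9 differences between gates from 6 to 11. DESeq2 and gates with 1 marker fewer were run for the penis-limb comparison only, so these ranges do not cover them. Without the replicate block on the library, which links the gates of 1 library, the counts were 52, 44 and 9. No called difference of the 10 genes changed sign in these settings. Differences that were not called did. Between penis and limb in mesenchyme, Grem1 (-0.06) gave 1.65 with gates at 2000 UMIs, which was called, 0.94 with 1 marker more and -0.29 to 0.19 with 1 library left out. Bmp5 there (-0.37) gave 0.62 and 0.21 in the first 2 of these settings. Bmp2 there (-0.04) gave 0.064 with gates at 2000 UMIs, 0.094 with 1 marker fewer, 0.026 over all barcodes and -0.17 to 0.12 with 1 library left out. In the chondrocyte gate Bmp2 (-0.35) gave 0.25 with gates at 2000 UMIs, and Bmp6 (0.14) gave -0.094 with 1 marker fewer and -0.10 to 0.41 with 1 library left out. In the mural gate RLE in place of TMM moved the median log2 difference of all genes from mesenchyme by 0.11 within the penis, and in the limb myeloid gate by -0.12.

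Among the weakest results are those on few UMIs or with 1 library apart: Bmp7 and Bmp3 in the chondrocyte gate, Gdf6 in the tendon gate, Bmp6 in epithelium and Bmp5 in mural cells. The Nog call over all kept cells held in 7 of 10 settings, and the difference was -0.15 over all barcodes. Thinning to 2000 UMIs before gating left 49, 34 and 27 penis chondrocyte-gated cells, and the calls that the penis-limb difference in that gate differed from the one in mesenchyme were then lost for Bmp5, Bmp6, Bmp4 (-1.15, edgeR adjusted p = 0.024) and Gdf6 (2.35, adjusted p = 0.10). Why was not tested.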
